A study of Mus musculus with 18 samples.

Results

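Expression was examined for 37 genes of fatty acid oxidation and of its nuclear receptor PPAR alpha in mouse livers and DEN-induced liver tumours, with and without the microRNA cluster miR-181ab1. The genes were taken as a fixed list of symbols covering beta-oxidation, ketone body metabolism and targets of PPAR alpha. All 37 of them were found among the 54838 genes of the expression table, and all 37 had a mean of at least 0.5 TPM over the 18 samples, as 13914 genes did. Levels are in TPM, which corrects the reads of each gene for gene length and then sets the total of every sample to 1000000. A TPM value is thus a share of its sample, and it also moves when other abundant genes differ between samples.

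PPAR alpha, encoded by Ppara, is a ligand-activated receptor that binds DNA together with RXR and raises the transcription of genes that burn fatty acids in the fasting liver. Fatty acids are bound and activated to acyl-CoA, carried into mitochondria by the carnitine shuttle and shortened by rounds of beta-oxidation, while peroxisomes shorten the very long chains. The acetyl-CoA that is released can leave the liver as ketone bodies.

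The 18 samples formed 6 groups of 3, all from C57BL/6 mice with a stated age of 36 weeks. WT mice had an intact cluster, and GKO mice carried a knockout of miR-181ab1 in every tissue rather than in hepatocytes alone. WT and GKO tumours and WT and GKO non-tumours (liver tissue around the tumours) came from mice given DEN (diethylnitrosamine, a liver carcinogen) in a single intraperitoneal dose of 25 mg/kg at postnatal day 12. WT and GKO normal livers came from untreated mice. The study's methods describe the DEN mice as males, the pups of both genotypes as littermates and the normal livers as age-matched. Neither the labels nor the methods say whether the mice were fasted, at what time of day the tissue was taken, or which tumour and non-tumour came from the same mouse, and the p-values below measure the spread between samples only.

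On the scale of reads recovered from TPM and gene length, the samples held 11925094 to 20751475 reads on genes, and every one of the 37 genes had at least 29 reads in every sample. Mir181a-1 and Mir181b-1 themselves were at 0 TPM in all samples other than a single read in GKO tumour 3, so the genotype could not be checked in these long-RNA libraries. The summed level of 9 hepatocyte markers was 68423 to 100458 TPM in the 12 livers without tumour and 200249 to 237931 TPM in the 6 tumours, with none of the markers at 0. The sum does not describe every marker. Gene by gene, the median log2 difference from non-tumours was 0.23 in WT tumours and 1.01 in GKO tumours. Over all genes tested it was -0.02 and 0.20. WT tumours 1 and 2 were close to each other (Pearson's r of 0.982 over all genes kept), while the other pairs of tumours had values of 0.911 to 0.950, and results that rest on these samples are given below with and without them.

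The mature microRNAs of the deleted cluster are shown because the knockout removes them and because their seed is what was searched for in the 37 genes. They are encoded on mouse chromosome 1 (RefSeq, GRCm38.p6) at chr1:137966468-137966490 and chr1:137966650-137966673, plus strand, and share the seed (bases 2 to 8, in capitals).
mmu-miR-181a-5p: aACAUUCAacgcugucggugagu
mmu-miR-181b-5p: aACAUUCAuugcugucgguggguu

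Of the 37 genes, 3 (8.11%) held a match to this 7-base seed in an annotated 3′ UTR of GENCODE vM21 (GRCm38), where 17.3% of the 20993 coding genes with a 3′ UTR did. None of the 37 had the 8-base form with an added A, against 5.58% of all genes. The longest 3′ UTR of each of the 37 genes ranged from 61 bases (Etfb) to 3930 bases (Ppargc1a). A short 3′ UTR has fewer places for a match, and the shares were not adjusted for length. The matches (capitals) lay in the 3′ UTRs of Acsl1 at chr8:46535930-46535958 (plus strand), Pdk4 at chr6:5485373-5485401 (minus strand) and Slc27a5 at chr7:12988352-12988373 (minus strand).
Acsl1: caacggggtttTGAATGTttgctttcagt
Pdk4: ttgctgcttcgTGAATGTgtgtggactct
Slc27a5: gagaataaactTGAATGTgtat
A match describes letters only, and no binding was measured.

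The second set of sequences bears on PPAR alpha itself, whose complex with RXR binds the DR1 element, made of AGGTCA, a single base N and AGGTCA again. RefSeq promoters (GRCm38.p6, 250 bases before to 50 bases after the start) were matched for 30 of the 37 genes. Those of Slc27a5, Vnn1, Hsd17b4, Acaa2, Angptl4, Decr1 and Crat were not used. On either strand, 5 of the 30 (16.7%) held the 13-base element with at most 2 mismatches, against 4.4% of the 27025 genes with such a promoter. At most 1 mismatch was found in 1 of the 30 (3.33%), against 0.644% of all. That promoter belonged to Fabp1, which encodes the liver fatty acid binding protein, and the element (capitals) was on the opposite strand to the gene at chr6:71199804-71199832 (shown on the plus strand). Those of Creb3l3 (chr10:81092780-81092808, minus strand) and Echs1 (chr7:140116484-140116512, minus strand) are shown as examples with 2 mismatches.
Fabp1: acaatcacTGACCTATGGCCTatatctga
Creb3l3: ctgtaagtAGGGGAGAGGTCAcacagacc
Echs1: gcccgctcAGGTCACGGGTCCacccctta
The search covered these promoters only, and a match is a description of letters rather than of a bound site.

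The mean level of the 37 genes varied less among the 12 livers without tumour than among the tumours, although single genes such as Fgf21 and Pdk4 varied widely in the livers too. As a description, the mean of the 37 values of log2(TPM + 1), taken relative to the WT normal livers, was -0.14 to 0.19 in the 6 normal livers, 0.01, 0.20 and 0.43 in WT non-tumours and 0.05, -0.41 and -0.15 in GKO non-tumours. In WT tumours it was -1.26, -1.27 and -0.17, and in GKO tumours -0.67, -0.02 and 0.40. WT tumours 1 and 2 were thus the lowest of all samples, WT tumour 3 lay far above them, and GKO tumour 1 was the lowest of its group. WT tumour 3 had the highest value of its group in 33 of the 37 genes, GKO tumour 3 in 31, and GKO tumour 1 the lowest in 28. GKO non-tumour 2 was the lowest of its group in 27 genes.

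**Figure D1:**
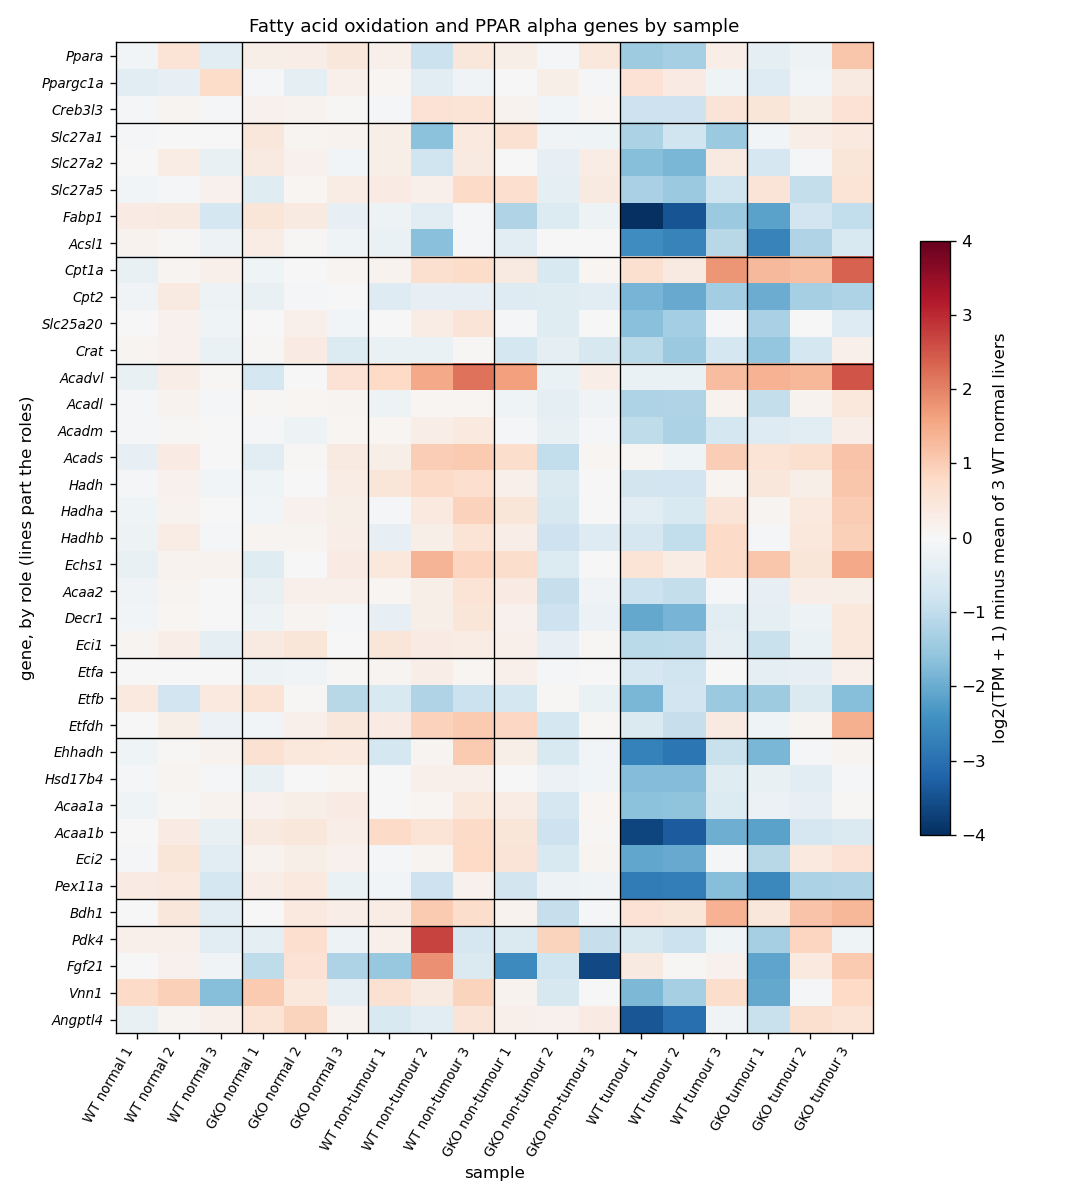
Level of the 37 genes (rows, grouped by role) in the 18 samples (columns), as log2(TPM + 1) minus the mean of the 3 WT normal livers on a colour scale from -4 (blue) to 4 (red). WT tumours 1 and 2 are blue in most rows, WT tumour 3 and GKO tumours 2 and 3 are mostly pale, and Cpt1a and Bdh1 are above the WT normal mean in all 6 tumours.

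The first question was how the genes differ between a tumour and the liver around it in each genotype. In WT mice the genes of fatty acid oxidation were lower in tumours: at an adjusted p under 0.05 (limma with Benjamini-Hochberg adjustment over all genes tested), 5 of the 37 genes fell and 0 rose. The falls were in Slc27a5, Cpt2, Acadm, Acaa1b and Pex11a, which cover uptake, the carnitine shuttle, mitochondrial beta-oxidation and peroxisomes. Among the 14003 genes tested, 2.07% fell and 2.16% rose by the same rule. The values of WT tumours and WT non-tumours did not overlap in 16 of the 37 genes, all of them lower in tumours, against 13.9% of all genes. At an unadjusted p under 0.05, 20 of the 37 were lower and 0 higher, against 10.6% and 9.31% of all genes, and with a sample left out the number ranged from 13 (without WT tumour 1 or WT tumour 2) to 30 (without WT tumour 3, 29 of them lower). The median log2 difference of the 37 genes was -1.15, and that of all genes tested -0.02, with 33 of the 37 differences below 0.

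In GKO mice 2 of the 37 genes passed the test, in opposite directions. Only Cpt1a rose and only Cpt2 fell by the same test, 1 gene each of the 37, where 7.75% of the 14092 genes tested rose and 3.97% fell. The groups did not overlap in 4 genes that were higher in tumours (Creb3l3, Cpt1a, Hadh and Bdh1, against 25.7% of all genes) and in 3 that were lower (Acsl1, Cpt2 and Pex11a, against 12.7% of all genes). The median log2 difference of the 37 genes was -0.06, beside 0.20 for all genes. Of the 37 differences 15 were above 0, and after centring each sample on its median, which brought the median of all genes to -0.04, 13 were above 0. The direction of the median turned with single samples: it was 0.31, with 26 differences above 0, without GKO tumour 1, 0.02 without GKO non-tumour 1, and -0.33, with 12 above 0, without GKO tumour 3.

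The count in WT mice changed with the samples in the fit. Without WT tumour 3, 20 of the 37 genes were called, all of them lower, and the calls over all genes rose as well, from 592 of 14003 to 1363 of 14075 (623 of them lower). With WT tumour 1, WT tumour 2, WT non-tumour 1 or WT non-tumour 3 left out, or with WT tumours 1 and 2 averaged as 1 sample, Acaa1b alone was called, and with all 18 samples in 1 fit 13 genes were. The count of 2 in GKO mice went to 0 or 1 when any sample was left out. In tissue samples, fewer cells of a type and less RNA per cell cannot be told apart.

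**Figure D2:**
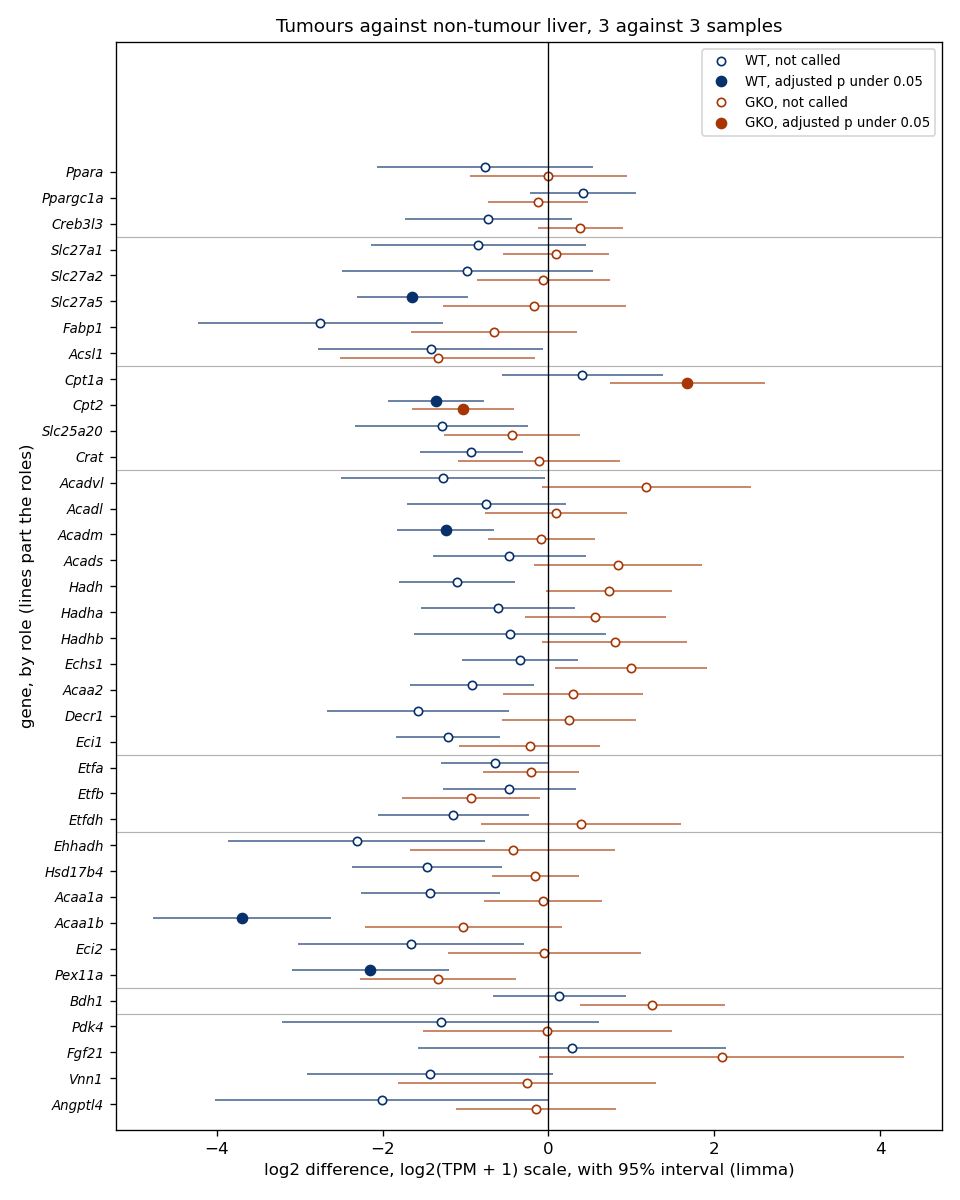
Log2 difference between tumours and non-tumours on the log2(TPM + 1) scale (x axis) for the 37 genes (y axis, grouped by role), in WT (blue) and GKO (brown), 3 samples against 3, with bars for limma's 95% interval and filled points for an adjusted p under 0.05. The WT points lie left of 0 for 33 genes, and the GKO points lie on both sides of it.

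The regulators showed no difference that passed the test. Ppara itself had 5.01, 5.40 and 18.3 TPM in WT tumours and 17.5, 7.79 and 21.2 TPM in WT non-tumours, a log2 difference of -0.76 ± 0.55 (SE, adjusted p = 0.502). In GKO mice its values were 11.5, 13.1 and 34.0 TPM in tumours and 17.8, 14.1 and 20.7 TPM in non-tumours, and normal livers of both genotypes had 10.7 to 22.7 TPM. WT tumours 1 and 2 were thus below every other sample, and GKO tumour 3 was the highest. Creb3l3, a liver transcription factor that works with PPAR alpha on fasting genes, had 98.8, 98.8 and 250.1 TPM in WT tumours, 244, 207 and 262 in GKO tumours, 165, 262 and 259 in WT non-tumours and 194, 164 and 185 in GKO non-tumours. Again WT tumours 1 and 2 were the lowest of all, and WT tumour 3 was as high as the GKO tumours. Ppargc1a, which encodes the coactivator PGC-1 alpha, stayed between 0.673 and 2.95 TPM in all 18 samples, with 2.55, 1.96 and 1.12 in WT tumours, 0.673, 1.22 and 2.05 in GKO tumours, 1.51, 0.724 and 1.18 in WT non-tumours and 1.34, 1.80 and 1.26 in GKO non-tumours. It did not follow the other regulators, since WT tumours 1 and 2, the lowest in Ppara, were above WT tumour 3 in Ppargc1a.

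Among the genes of uptake, binding and activation, Fabp1 was by far the most abundant of the 37, with 16035 to 36409 TPM in normal livers. Its values were 1617, 2392 and 9230 TPM in WT tumours, against 22460, 19653 and 24690 in WT non-tumours, a 5.05-fold lower mean. The groups did not overlap, but the difference of -2.75 ± 0.62 (SE, log2) missed the threshold (adjusted p = 0.0636). In GKO mice Fabp1 had 5928, 15184 and 13128 TPM in tumours and 11437, 17860 and 22892 in non-tumours, with overlapping groups. Slc27a5 encodes the liver fatty acid transport protein that also activates bile acids. It had 163, 143 and 231 TPM in WT tumours and 511, 472 and 686 in WT non-tumours, and it fell by 1.64 ± 0.28 (SE, log2, adjusted p = 0.0276), with all 3 tumours below all 3 non-tumours. In GKO mice the values were 580.5, 211 and 588 TPM in tumours and 642, 308 and 518 in non-tumours, so that GKO tumour 2 was low and the other two were at the level of the liver.

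Acsl1, the main long-chain acyl-CoA synthetase of liver, was low in the tumours of both genotypes. It had 38.3, 33.2 and 101 TPM in WT tumours, 33.3, 95.1 and 142 in GKO tumours, 180.2, 67.5 and 209.6 in WT non-tumours and 158, 217 and 218 in GKO non-tumours. The log2 differences of -1.42 ± 0.57 (SE) in WT and -1.34 ± 0.50 (SE) in GKO did not pass the test (adjusted p = 0.237 and 0.12). Only in GKO mice were the groups apart, since WT non-tumour 2 was itself low. The fatty acid transporters Slc27a2 and Slc27a1 had 395 to 886 and 0.735 to 7.14 TPM in the 12 livers without tumour, and 211, 194 and 879 TPM and 1.26, 2.09 and 0.913 TPM in WT tumours. Slc27a2 was thus low in WT tumours 1 and 2 alone, and Slc27a1 in all 3 WT tumours and in WT non-tumour 2.

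In the carnitine shuttle, Cpt1a and Cpt2 moved in opposite directions in GKO mice. Cpt1a, the transferase of the outer mitochondrial membrane and the step that sets the rate of entry, was high in GKO tumours, with 239, 227 and 506 TPM in GKO tumours and 127, 63.2 and 103 in GKO non-tumours. It rose by a log2 difference of 1.67 ± 0.40 (SE, adjusted p = 0.0394), 3.32-fold on the means, without overlap. The WT tumours had 152, 126 and 335 TPM and the WT non-tumours 108, 153 and 165, which overlapped. Cpt2, the transferase of the inner membrane that hands the acyl group back to CoA, went the other way. Its values were 57.5, 52.1 and 79.8 TPM in WT tumours, 52.7, 84.1 and 89.6 in GKO tumours, 147, 169 and 167 in WT non-tumours and 148, 150.2 and 156 in GKO non-tumours. Every tumour was thus below every liver without tumour, among which Cpt2 had 147 to 273 TPM, and Cpt2 fell in both genotypes, by 1.36 ± 0.24 (SE, log2, adjusted p = 0.031) in WT and by 1.03 ± 0.26 (adjusted p = 0.0463) in GKO. The carrier Slc25a20, which moves acylcarnitine across the inner membrane, and Crat, the carnitine acetyltransferase, had 20.3, 25.2 and 64.8 TPM and 20.1, 15.0 and 26.5 TPM in WT tumours and were lower than in WT non-tumours without overlap, with adjusted p of 0.173 and 0.115.

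The opposite course of the transferases was also seen in their ratio, which a common scaling of a sample cannot change. The ratio of Cpt1a to Cpt2 TPM was 2.64, 2.42 and 4.19 in WT tumours and 4.54, 2.704 and 5.65 in GKO tumours. In the livers without tumour it was 0.386 to 0.611 in the 6 normal livers, 0.735, 0.903 and 0.987 in WT non-tumours and 0.856, 0.42 and 0.662 in GKO non-tumours. All 6 tumours were above all 12 livers, and WT and GKO tumours overlapped. The ratio was chosen after its values were seen and was not tested.

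**Figure D3:**
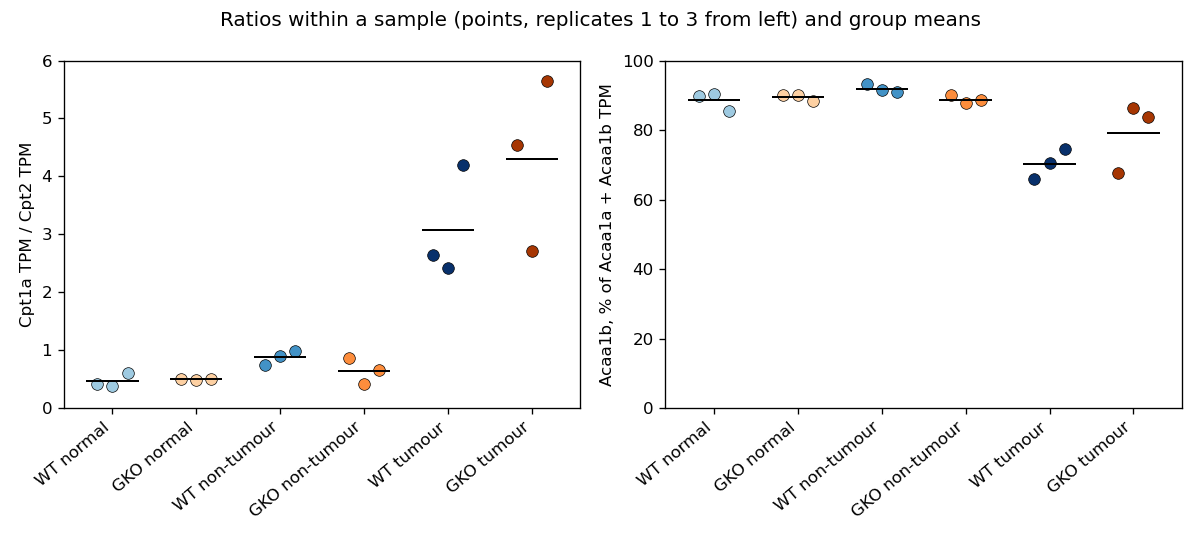
Left, the ratio of Cpt1a to Cpt2 TPM, and right, the share of Acaa1b in the sum of Acaa1a and Acaa1b TPM (%), by group (x axis), with a point for each sample (replicates 1 to 3 from left) and a line for the group mean. The ratio is at most 0.987 in the 12 livers and at least 2.42 in the 6 tumours, and the share is below 75% in the WT tumours and GKO tumour 1.

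In mitochondrial beta-oxidation, the gene called was Acadm, which fell in WT tumours. All 11 of its genes had a lower mean log2 level in WT tumours than in WT non-tumours (median difference -0.93), and 9 of the 11 a higher one in GKO tumours than in GKO non-tumours (median 0.57). Over all genes tested, 47.9% of the differences were above 0 in WT and 62.7% in GKO, and no interaction passed the test given further on. Acadm, the medium-chain acyl-CoA dehydrogenase, had 106, 88.3 and 132 TPM in WT tumours and 225, 260.5 and 284 in WT non-tumours, and it fell by 1.24 ± 0.25 (SE, log2, adjusted p = 0.0419) without overlap. In GKO mice it had 150.1, 160.0 and 258 TPM in tumours and 204, 176 and 206 in non-tumours, with GKO tumour 3 above and the other two below the liver values. Hadh, which encodes the dehydrogenase for short and medium chains, had 54.7, 53.4 and 98.0 TPM in WT tumours, all below the 128, 155 and 146 TPM of WT non-tumours. In GKO mice the order was the reverse, with 126, 109 and 198 TPM in tumours, all above the 106, 60.3 and 92.3 TPM of non-tumours. Neither difference passed the test (adjusted p = 0.102 in WT and 0.169 in GKO).

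Hadha, the alpha subunit of the trifunctional protein that carries out the last steps on long chains, had 44.4, 39.7 and 88.2 TPM in WT tumours, 66.9, 80.9 and 126 in GKO tumours, 59.5, 81.4 and 117 in WT non-tumours and 85.3, 39.0 and 62.3 in GKO non-tumours, with overlap in both genotypes. Decr1 and Eci1, the auxiliary enzymes for unsaturated fatty acids, were lower in WT tumours without overlap (-1.57 ± 0.46 and -1.21 ± 0.26, SE, log2), with adjusted p of 0.124 and 0.0569. Acaa2, the mitochondrial thiolase, was the most abundant of the group, with 718, 669 and 1234 TPM in WT tumours against 1379, 1549 and 1906 in WT non-tumours. Its groups were apart too, without a call (adjusted p = 0.172). Acadvl, the very-long-chain dehydrogenase, had 19.5, 19.2 and 56.1 TPM in WT tumours and 63.3, 59.9 and 138 in GKO tumours, but 42.9% of its exonic bases overlap Dvl2 on the other strand and strand-specific counting is not stated, so its values are uncertain. The other genes of the group, Acadl, Acads, Hadhb and Echs1, overlapped between tumours and non-tumours in both genotypes.

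Among the electron carriers that take over from the dehydrogenases, Etfdh (the ubiquinone oxidoreductase) had 16.8, 13.2 and 33.6 TPM in WT tumours, 22.5, 28.1 and 70.9 in GKO tumours, 32.8, 49.5 and 54.7 in WT non-tumours and 46.3, 15.6 and 26.8 in GKO non-tumours. WT tumour 3 reached the non-tumour range, and GKO tumour 3 was above every other sample. Etfa, a subunit of the electron transfer flavoprotein, had 308, 285 and 481 TPM in WT tumours, below all 3 WT non-tumours (526, 591 and 521 TPM), with an unadjusted p of 0.0512. The values of its partner Etfb are uncertain, because 53.0% of its exonic bases overlap Gm45233 on the same strand, and they did not follow Etfa: in normal livers Etfb ranged from 189 to 599 TPM and Etfa from 426 to 510 TPM.

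The peroxisomal genes had the lowest levels relative to the surrounding liver in WT tumours, with a median log2 difference of -1.91 over 6 genes. Acaa1b, a peroxisomal thiolase, had 117, 148 and 385 TPM in WT tumours and 2581, 2204 and 2569 in WT non-tumours. It fell by 3.69 ± 0.45 (SE, log2, adjusted p = 0.00827), an 11.3-fold lower mean and the largest difference of any of the 37 genes in that comparison, and it kept its call under all 16 alternatives run. In GKO mice the values were 341, 946 and 1014 TPM in tumours and 2099, 851 and 1561 in non-tumours, with a log2 difference of -1.03 ± 0.51 (SE, adjusted p = 0.206) and overlap. Its close paralog Acaa1a, which lies on the same chromosome, had 60.8, 61.8 and 131 TPM in WT tumours, 163, 151 and 196 in GKO tumours, 189, 203 and 255 in WT non-tumours and 234, 119 and 199.9 in GKO non-tumours. It was lower in WT tumours without overlap (adjusted p = 0.0801). The share of Acaa1b in the sum of both was 85.5 to 93.2% in the 12 livers without tumour, 65.8, 70.5 and 74.5% in WT tumours and 67.7, 86.2 and 83.8% in GKO tumours, so the paralogs did not fall in step, though reads that fit both could be split between them.

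Ehhadh, the bifunctional peroxisomal enzyme and a classical target of PPAR alpha, had 45.9, 39.7 and 165 TPM in WT tumours and 186, 329 and 629 in WT non-tumours, apart but not called (log2 difference -2.31 ± 0.65 (SE), adjusted p = 0.115). In GKO mice it had 84.7, 288 and 330.4 TPM in tumours and 358, 197 and 283 in non-tumours. GKO tumour 1 lay within the range of the WT tumours, and the other two were within the liver range. Pex11a, which drives the division of peroxisomes, had 15.5, 15.8 and 34.0 TPM in WT tumours, 18.2, 46.6 and 47.9 in GKO tumours, 103, 63.1 and 126 in WT non-tumours and 67.6, 98.1 and 103 in GKO non-tumours. All 6 tumours were below all 12 livers without tumour (63.1 to 148 TPM). It fell in WT by 2.15 ± 0.40 (SE, log2, adjusted p = 0.0344), and in GKO its difference of -1.33 ± 0.40 (SE) had an adjusted p of 0.0729. Hsd17b4, the other bifunctional enzyme, was below WT non-tumours in every WT tumour (85.0, 85.6 and 206 against 289, 333 and 333 TPM), and Eci2, a peroxisomal isomerase, only in WT tumours 1 and 2 (16.0, 16.5 and 67.0 against 66.7, 74.8 and 123 TPM).

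Bdh1, which interconverts the ketone bodies acetoacetate and beta-hydroxybutyrate, did not share the fall. It had 208, 195 and 365 TPM in WT tumours and 172, 289.7 and 225 in WT non-tumours, which overlapped, and 189, 309.5 and 349.5 TPM in GKO tumours, all above the 154, 72.0 and 134 TPM of GKO non-tumours. The GKO difference of 1.25 ± 0.37 (SE, log2) had an adjusted p of 0.0696.

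The targets of PPAR alpha outside oxidation varied widely between samples of the same group. Angptl4, a secreted inhibitor of lipoprotein lipase, had 7.38, 10 and 79.4 TPM in WT tumours, 46.9, 136 and 128 in GKO tumours, 57.0, 65.3 and 125 in WT non-tumours and 101, 99.3 and 112 in GKO non-tumours. WT tumours 1 and 2 were the lowest of all 18 samples, and WT tumour 3 lay within the liver range. Vnn1, the pantetheinase vanin 1, had 21.9, 30.6 and 129 TPM in WT tumours, 18.4, 76.1 and 136 in GKO tumours, 121, 102 and 145 in WT non-tumours and 86.5, 50.3 and 77.4 in GKO non-tumours, and it ranged as widely in WT normal livers (134, 153 and 23.5 TPM). Fgf21, the fasting hormone, had 83.3, 66.2 and 72.4 TPM in WT tumours, 14.1, 84.0 and 133 in GKO tumours, 21.8, 229 and 42.8 in WT non-tumours and 10.2, 36.5 and 4.30 in GKO non-tumours. Pdk4, the kinase that spares glucose in fasting, had 2.07, 1.63 and 3.29 TPM in WT tumours, 0.894, 7.70 and 3.30 in GKO tumours, 4.54, 30.2 and 1.97 in WT non-tumours and 2.18, 7.96 and 1.55 in GKO non-tumours. WT non-tumour 2 had the highest Fgf21 and the highest Pdk4 of all 18 samples and, beside them, the lowest Slc27a1 of all and the lowest Ppara and Acsl1 of the 12 livers without tumour.

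**Figure D4:**
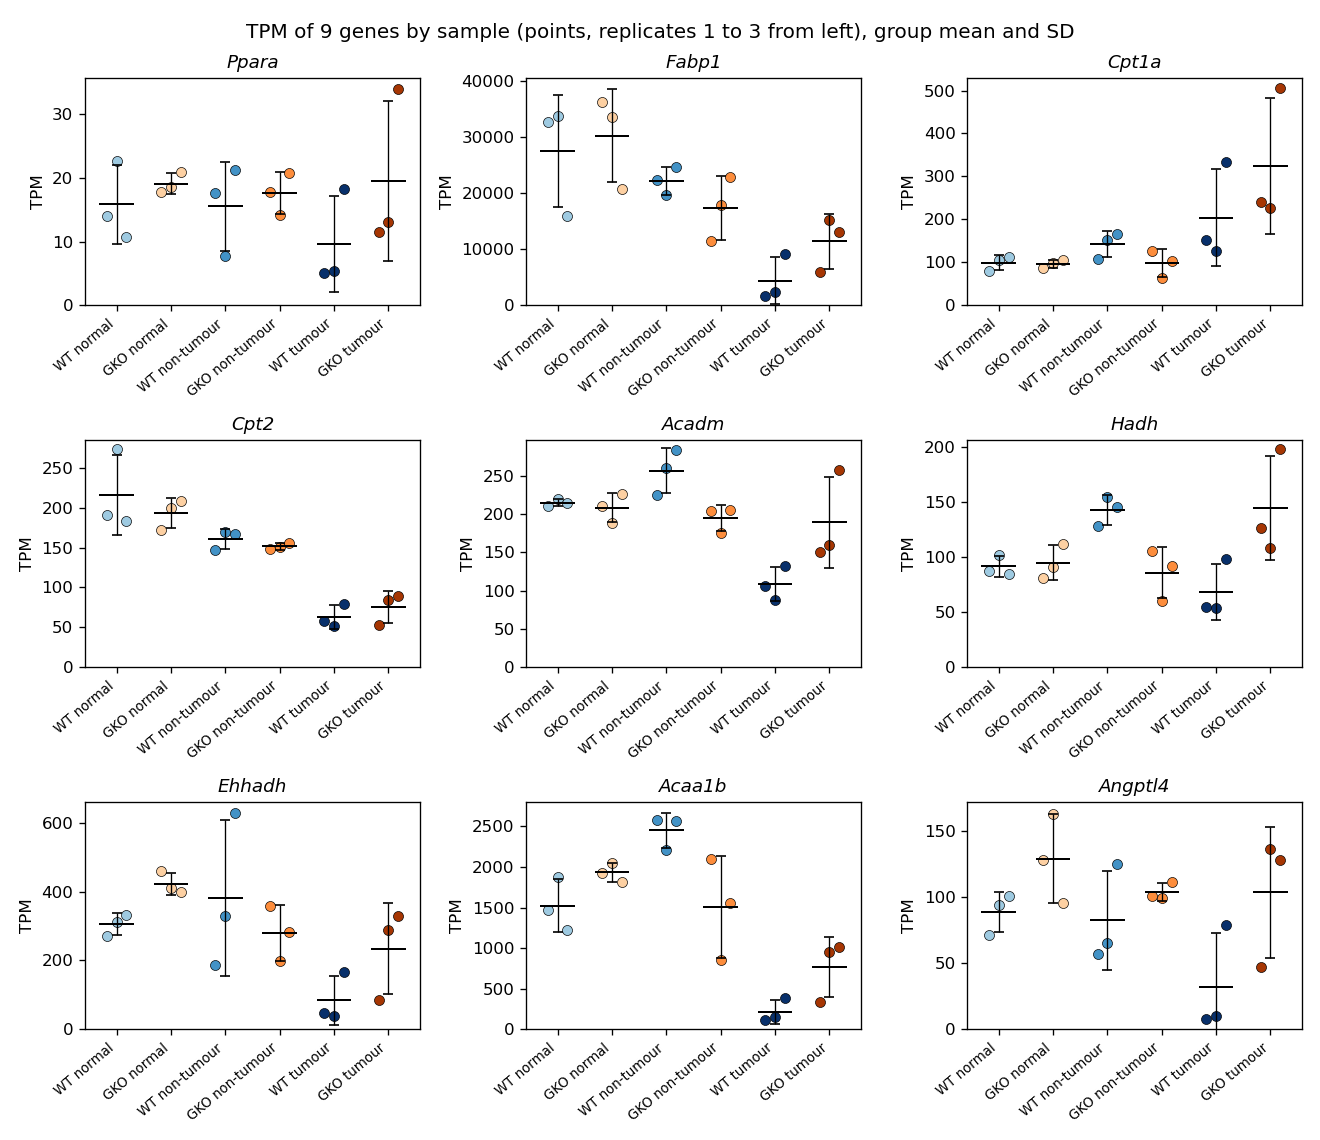
TPM (y axes, from 0) of 9 of the 37 genes in the 6 groups (x axes), with a point for each sample (replicates 1 to 3 from left), the group mean (line) and its SD (bar), n = 3. Cpt2 is lower in all 6 tumours than in all livers, the group means of Cpt1a are highest in the tumours, and WT tumour 3 stands above WT tumours 1 and 2 in each of the 9 genes.

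The next question was how the tumours of the genotypes differ from each other. The mean levels of most of the genes were higher in GKO tumours, without a call: 0 of the 37 genes passed an adjusted p under 0.05 in limma, where 0% of the 13964 genes tested rose and 0.0215% fell. At an unadjusted p under 0.05, 11 of the 37 were higher (5.37% of all genes) and 0 lower, and voom on the recovered reads gave the same numbers. That count of 11 was 2 without WT tumour 1, 2 without WT tumour 2, 2 with both averaged as 1 sample, 1 without GKO tumour 3 and 24 without WT tumour 3. The values did not overlap in 7 genes, all higher in GKO tumours, against 9.88% of all genes. These were Slc27a1, Acadvl, Acadm, Hadh, Decr1, Hsd17b4 and Acaa1a. The median log2 difference of the 37 genes was 0.73, beside 0.09 for all genes, and 35 of the 37 differences were above 0, with Ppargc1a and Fgf21 below. Leaving out a sample moved the median between 0.48 (without GKO tumour 3) and 1.12 (without WT tumour 3).

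The per-sample values above show what this rests on. For Acaa1b the means were 767 ± 370.4 TPM in GKO tumours and 216 ± 147 in WT tumours (SD, n = 3), a log2 difference of 1.87 ± 0.58 (SE, adjusted p = 0.465), but WT tumour 3 overlapped GKO tumour 1. For Fabp1 they were 11413 ± 4861 and 4413 ± 4190 TPM (difference 1.68 ± 0.69, SE), and for Angptl4 104 ± 49.6 and 32.3 ± 40.9 TPM (difference 2.28 ± 0.88, SE), again with overlap. Slc27a1 had the lowest p of the 37 (unadjusted 0.00112, adjusted 0.288), with 4.04, 5.45 and 5.99 TPM in GKO tumours and 1.26, 2.09 and 0.913 in WT tumours. Ppara had a difference of 1.02 ± 0.57 (SE, adjusted p = 0.647), Creb3l3 0.80 ± 0.39 (adjusted p = 0.595) and Ehhadh 1.56 ± 0.70 (adjusted p = 0.567). Cpt2 had 75.5 ± 19.9 and 63.2 ± 14.7 TPM (SD, n = 3), with a 95% interval of the log2 difference of -0.44 to 0.92. Without WT tumour 3, 3 of the 37 genes were called, all higher in GKO tumours, and over all genes 147 of 14031 were called, 37 of them higher. Without any other sample of the 6 tumours, 0 of the 37 were called.

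Several other gene lists were read beside this comparison. In limma 0 of their genes were called, where 0% of all genes rose and 0.0215% fell. Summed, 9 clock genes with an evening peak had 341, 263 and 532 TPM in GKO and 116, 114 and 188 in WT tumours. All 9 of the 9 had a higher mean log2 level in GKO tumours. In 7 of them GKO tumours were higher without overlap, against 9.88% of all genes, and limma called 0 of the 9. The 5 clock genes with a morning peak summed to 20.5, 15.6 and 16.1 TPM in GKO and 59.2, 49.5 and 32.6 in WT tumours. Ppara and many of its targets are known to follow the time of day. The 10 fibroblast and stellate cell markers summed to 118, 172 and 77.8 TPM in GKO and 53.3, 65.8 and 40.3 TPM in WT tumours, and the 7 cholangiocyte markers to 48.7, 969 and 565 and 52.0, 59.2 and 32.6 TPM, the high sums of GKO tumours 2 and 3 being mostly Spp1 (34.0, 934 and 536 TPM). The 10 proliferation genes summed to 78.7, 53.2 and 124 TPM in GKO tumours and 161, 144 and 31.8 in WT tumours, WT tumour 3 being the lowest of the 6 tumours. The part of these in the result was not tested.

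**Figure D5:**
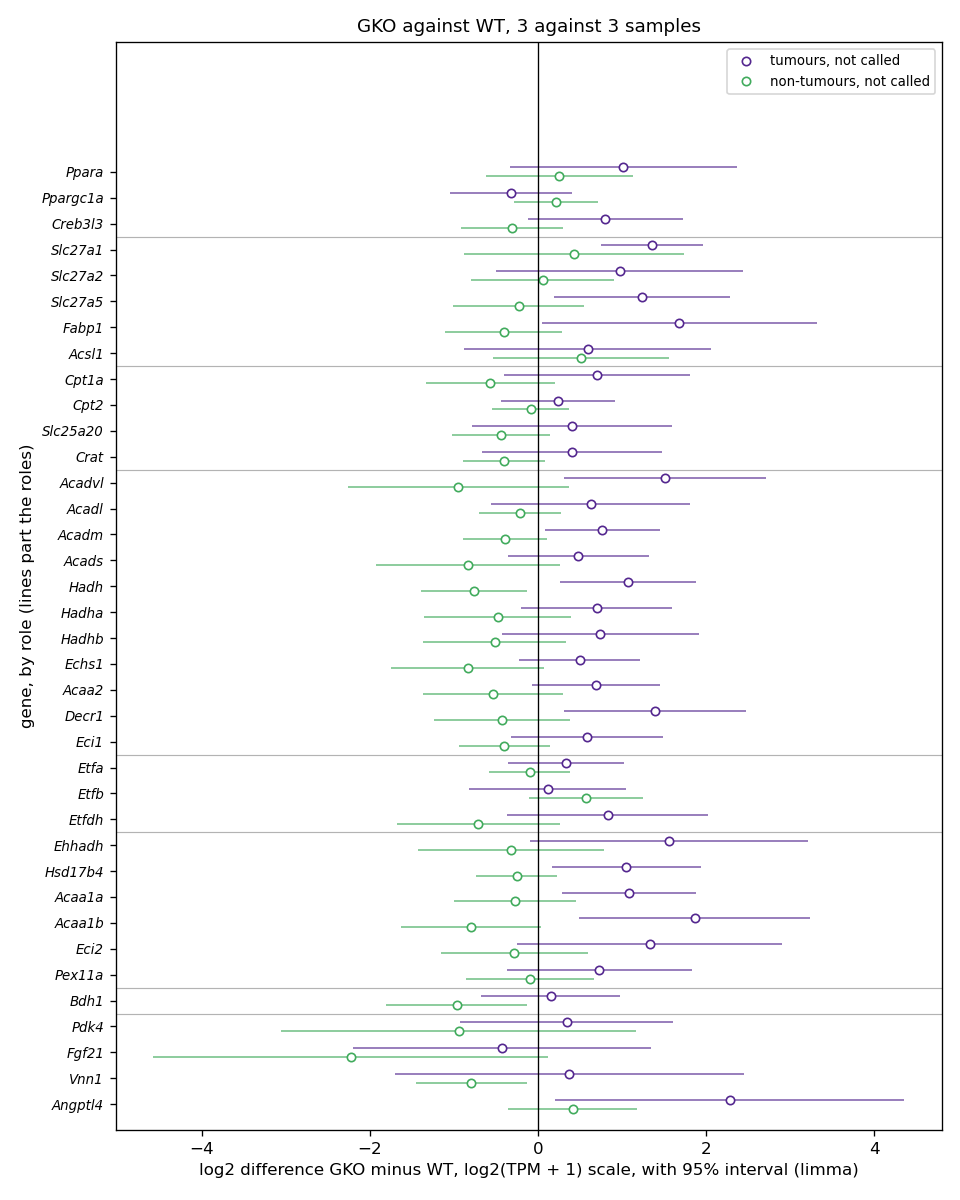
Log2 difference GKO minus WT on the log2(TPM + 1) scale (x axis) for the 37 genes (y axis, grouped by role), in tumours (purple) and non-tumours (green), 3 samples against 3, with bars for limma's 95% interval. The tumour points lie right of 0 for 35 genes and the non-tumour points left of 0 for 30, and no gene had an adjusted p under 0.05.

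In the liver around the tumours most of the differences pointed the other way, again without a call. In GKO against WT non-tumours, 0 of the 37 genes passed limma's adjusted p, as did 0% of the 13768 genes tested, and voom gave 0 as well. At an unadjusted p under 0.05, 3 were lower (Hadh, Bdh1 and Vnn1, against 3.84% of all genes) and 0 higher. The groups did not overlap in 7 genes, all lower in GKO, against 9.32% of all genes. The median log2 difference was -0.40, beside -0.15 for all genes, and -0.23 after median centring. Without GKO non-tumour 2 the median was -0.20. The unadjusted count was 1, lower in GKO, without GKO non-tumour 2 or WT non-tumour 2. Without WT non-tumour 3 it was also 1, but that gene was higher in GKO and 0 were lower. It was 2, lower in GKO, without GKO non-tumour 3, and 10, of which 9 were lower, without GKO non-tumour 1. Acaa1b had 1504 ± 626 TPM in GKO and 2451 ± 214 in WT non-tumours (SD, n = 3), a log2 difference of -0.80 ± 0.35 (SE, adjusted p = 0.643). Hadh differed by -0.76 ± 0.27 (SE, adjusted p = 0.643). GKO non-tumour 2, the lowest of its group in 27 of the 37 genes, also had the lowest sum of the evening clock genes, with 173, 50.8 and 260.0 TPM in GKO and 185, 95.8 and 288 in WT non-tumours.

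Whether the genotype difference changes between tumour and surrounding liver was tested as an interaction over these 12 samples. In limma 0 of the 37 genes passed, as did 0% of all 14106 genes in this direction, and voom gave 0. At an unadjusted p under 0.05, 12 of the 37 had a higher genotype difference in tumours (7.95% of all genes) and 0 a lower one. With a sample left out this count ranged from 7 (without WT tumour 2 or GKO tumour 3) to 26 (without WT tumour 3), and it was 21 without GKO tumour 1 and 8 with WT tumours 1 and 2 averaged. The lowest p was that of Hadh, with an interaction of 1.83 ± 0.45 (SE, log2, unadjusted p = 0.00169, adjusted p = 0.404). Acaa1b had the largest interaction, 2.66 ± 0.74 (SE, adjusted p = 0.417). The median over the 37 genes was 1.22, beside 0.23 over all genes.

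In untreated livers no difference between the genotypes passed the test. Between GKO and WT normal livers 0 of the 37 genes passed limma's test, as did 0% of the 13099 genes, and voom gave 0. Ehhadh alone had an unadjusted p under 0.05 (3.17% of all genes in its direction), with 460.2, 410.0 and 398 TPM in GKO and 271, 312 and 333 TPM in WT normal livers, a log2 difference of 0.47 ± 0.16 (SE, adjusted p = 0.999). With a sample left out, the unadjusted count was 0 (without WT normal 1 or GKO normal 1) to 3 (without WT normal 2, all higher in GKO). Without GKO normal 2 it was 1, and that gene was lower in GKO. The groups did not overlap in 3 genes, all higher in GKO, against 6.23% of all genes. The median log2 difference of the 37 genes was 0.07, beside 0.06 for all genes, and 23 of the 37 differences were above 0, or 17 after median centring.

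Livers around tumours were also set against untreated livers. In WT, 0 of the 37 genes passed limma's test in either direction (0.00744% of the 13440 genes rose), and voom gave 0. At an unadjusted p under 0.05, 6 genes were higher and Etfb lower, against 22.4% of all genes that were higher, and 9 of the 37 were higher without overlap, against 31% of all genes. Hadh is an example, with 128, 155 and 146 TPM in WT non-tumours and 87.7, 102 and 85.0 TPM in WT normal livers (0.64 ± 0.19, SE, log2, adjusted p = 0.136). With a sample left out, the 7 genes at an unadjusted p under 0.05 became 3 (without WT normal 1) to 11 (without WT non-tumour 1), and 4 without WT normal 3 or WT non-tumour 3. The direction of the group depended on the scaling: 24 of the 37 differences were above 0 (median 0.17, beside 0.32 for all genes), and 12 after median centring (median -0.21).

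The same comparison in GKO mice gave 0 of the 37 genes by limma, as for 0% of the 13530 genes, and 0 by voom. Ehhadh, Fabp1 and Fgf21 were lower in GKO non-tumours at an unadjusted p under 0.05 (0.909% of all genes), and 3 genes were lower without overlap (1.6% of all genes). The unadjusted count of 3 was 0 without GKO normal 1 or GKO normal 2, 1 without GKO non-tumour 2 or GKO non-tumour 3, and 5 without GKO normal 3. The values of Fgf21 were 10.2, 36.5 and 4.30 TPM in GKO non-tumours and 31.4, 97.6 and 26.9 TPM in GKO normal livers, which overlapped. Those of Ehhadh were 358, 197 and 283 and 460.2, 410.0 and 398 TPM, all 3 non-tumours below all 3 normal livers (log2 difference -0.63 ± 0.26, SE, adjusted p = 0.952). Of the 37 differences 32 were below 0, with a median of -0.20 beside 0.08 for all genes. Without GKO non-tumour 2 the median was -0.04, and 16 of the 37 differences were above 0. The WT and GKO comparisons use different non-tumours and different normal livers, but each set of non-tumours also serves the tumour comparison of its genotype.

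Further genes of the pathway were counted by the same test. Of 54 other genes of beta-oxidation, peroxisomes and ketone bodies, 52 were tested, and 8 fell and 1 rose in WT tumours (median -0.73), while 1 fell and 5 rose in GKO tumours (median 0.25). Over all genes 2.07% fell and 2.16% rose in WT, and 3.97% fell and 7.75% rose in GKO, with medians of -0.02 and 0.20, and these shares apply to the further lists as well. Hacl1, which shortens branched and hydroxylated fatty acids in peroxisomes, fell in both genotypes, from 14.8 ± 1.99 to 1.65 ± 0.484 TPM (SD, n = 3) in WT and from 22.2 ± 6.22 to 7.69 ± 3.49 in GKO (adjusted p = 0.00228 and 0.0394). Acsl4, an acyl-CoA synthetase that prefers arachidonic acid, rose in both, from 7.09 ± 2.47 to 42.4 ± 17.3 TPM and from 4.75 ± 1.54 to 34.0 ± 14.2 TPM (adjusted p = 0.0238 and 0.00833), so its direction was opposite to that of Acsl1. The carnitine transporter Slc22a5 and the medium-chain synthetase Acsm5 fell in WT (-2.11 ± 0.27 and -2.09 ± 0.19, SE, log2). In GKO, the peroxisomal transporter Abcd2 and the fatty acid binding protein Fabp4 rose (3.34 ± 0.30 and 2.66 ± 0.39, SE, log2). Fabp4 is best known from adipocytes and macrophages, and of the other 5 adipocyte markers Lep was at 0 in all tumours and non-tumours, Adipoq and Plin1 were at 0.0898 TPM or less, Retn at 0.308 TPM or less, and Cfd had 0.266 to 21.8 TPM in non-tumours and 0 to 2.52 TPM in tumours.

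Of 25 other regulators of PPAR alpha activity, 25 were tested, and 1 passed in WT tumours (Rxrg, -1.29 ± 0.25, SE, log2, adjusted p = 0.0388) and 0 in GKO tumours. Rxra, the partner receptor of PPAR alpha, had 105 ± 40.6 TPM in WT tumours and 119 ± 50.3 in WT non-tumours (SD, n = 3).

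Of 32 targets of PPAR alpha outside oxidation, 29 were tested. In WT tumours 7 fell and 1 rose (median -1.86), and in GKO tumours 2 fell and 3 rose (median -0.44). Cyp4a10, a fatty acid omega-hydroxylase, had 10.96, 9.35 and 10.5 TPM in WT tumours and 411, 315 and 726 in WT non-tumours (adjusted p = 0.00112), and 2.72, 301 and 685 TPM in GKO tumours against 1350, 602 and 1008 in GKO non-tumours, where GKO tumour 1 was lower than all 3 WT tumours. Fitm1, a lipid droplet gene, and Cyp4a12b fell in WT as well (-4.54 ± 0.75 and -4.38 ± 0.49, SE, log2), and Hilpda, an inhibitor of triglyceride breakdown, rose (2.02 ± 0.37). In GKO, Cyp4a12a and the perilipin Plin4 fell (-2.66 ± 0.51 and -2.32 ± 0.37), and Krt23, Cyp4a31 and the thioesterase Acot2 rose (3.51 ± 0.59, 2.59 ± 0.52 and 1.21 ± 0.25). The Cyp4a genes and the Acot genes are near-identical copies in part, so reads could be split between them. Of 17 citric acid cycle genes, the next step after beta-oxidation, limma called 0 in each tumour comparison, with medians of -0.42 in WT and 0.44 in GKO.

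Zonation markers were given the same count, since fatty acid oxidation is known to be stronger near the portal vein. Of 14 pericentral genes, 8 fell in WT tumours and 5 of the 13 tested fell in GKO tumours (median -2.78 and -2.85), and 0 rose in either, against 2.07% and 3.97% of all genes that fell. Of 14 periportal genes, 0 passed in WT tumours, and 2 fell and 1 rose in GKO tumours (median 0.34 and -0.58). Other cell types and states were counted as well, beside the same shares of all genes (2.16% higher and 2.07% lower in WT, 7.75% higher and 3.97% lower in GKO). Of 10 proliferation genes, 1 rose in WT tumours and 8 of the 9 tested rose in GKO tumours (median 1.497 and 1.54). Of 10 fibroblast and stellate cell markers, 1 fell in WT, and 4 rose and 1 fell in GKO (median -0.22 and -0.05). Of 9 hepatocyte markers, 2 rose in WT and 4 in GKO (median 0.23 and 1.01). Of 5 tested cholangiocyte markers, 0 passed in either. Of 8 macrophage markers, 0 passed in WT tumours and 2 fell in GKO tumours (median -1.35 and -2.07), and of 8 endothelial markers 0 of the 7 tested passed in WT and 2 rose in GKO (median 0.67 and 0.11). Of 6 tested markers of T, NK and B cells, 0 passed in WT and 1 fell in GKO. Of 12 fasting-responsive liver genes, 2 fell and 1 rose in WT tumours, and 2 rose in GKO tumours (median 0.25 and 0.52). The 6 muscle markers summed to 0 to 0.238 TPM over the 18 samples. The part of these lists in the results was not tested.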

How the data were processed

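RNA-seq libraries of 18 mouse liver and liver tumour samples were analysed from the table of TPM (length-corrected reads, scaled to 1000000 a sample) that the authors deposited. The submitters' processing notes name STAR 2.7.3a, featureCounts 2.0.0 and mm10, while the gene annotation, strand setting and TPM calculation are not given in the sources used here. Reads were recovered from TPM and GENCODE vM21 exonic lengths, with 97.953% to 98.674% of low values whole within 0.02, and the samples held 11925094 to 20751475 reads.

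Groups followed the labels, 3 samples each. Values were taken as log2(TPM + 1), so changes of low genes are understated. In each comparison, genes averaging 0.5 TPM or more were tested with limma 3.58.1 (R 4.3.3, two-sided, eBayes with a trend, Benjamini-Hochberg adjustment), and an adjusted p under 0.05 was a call. An exact permutation test of 3 against 3 cannot go below 0.1, so none was used. Tables and figures were made with Python 3.11.15, numpy 2.4.6, pandas 2.3.3 and matplotlib 3.10.9.

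The 37 genes, the further gene lists and the tests were chosen with earlier results of these data known. Values per sample are given for the regulators, for the defining gene of each step, for Pdk4, Fgf21, Vnn1 and Angptl4 and for genes called. Of the further lists of pathway genes, those with the 3 largest changes each way among called genes were named, and Rxra in any case. Some genes of these lists are not reported here. Other genes named, and the Cpt1a to Cpt2 ratio, were chosen after their values were seen.

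Alternatives were another pseudocount (0.1), other filters (none, or 5 TPM), quantile normalization, median centring, no trend, 1 fit of all 18 samples, a replicate block and leaving out each sample. Voom on recovered reads, and WT tumours 1 and 2 averaged as 1 sample, were added after seeing the data. The labels number the samples 1 to 3 in each group. Same-numbered GKO and WT tumours deviated together weakly over genes (r of 0.101, 0.120 and 0.197), but they come from different mice. GKO tumour 1 matched WT tumour 2 best, so the numbers were not taken as pairing, and the main fit had no block. With the block, 0 of the 37 genes were called in that comparison, as without it, and calls over all genes went from 3 to 0. At an unadjusted p under 0.05 in limma, 19 of the 37 were higher with the block and 11 without it.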

Additional observations from a re-analysis of the deposited data

Results flagged for a closer look

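Hadh and Acadm were singled out because matching contrasts showed groups without overlap in opposite directions. The share of all genes that meet this rule was not counted. For Hadh, all 3 WT tumours were below all 3 WT non-tumours and all 3 GKO tumours above all 3 GKO non-tumours. The same values, read by genotype, put all 3 GKO tumours above the WT tumours and all 3 GKO non-tumours below the WT non-tumours. In both readings the interaction was 1.83 on the log2 scale, with an adjusted p of 0.404 in limma. For Acadm, GKO tumours were above WT tumours and GKO non-tumours below WT non-tumours without overlap, an interaction of 1.16 with an adjusted p of 0.417. Neither passed the test of the difference.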

How the results depend on the processing

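Among the 37 genes, 5 were called between WT tumours and WT non-tumours. This count was 2 with no filter on low values, 3 after quantile normalization, 13 with all 18 samples in 1 fit and 1 with WT tumours 1 and 2 averaged as 1 sample, and it ranged from 1 to 20 when a sample was left out (20 without WT tumour 3, and 1 without WT tumour 1, WT tumour 2, WT non-tumour 1 or WT non-tumour 3). Between GKO tumours and GKO non-tumours the count of 2 was 0 with no filter, 4 with all 18 samples in 1 fit and 0 to 1 with a sample left out. Between GKO and WT tumours it was 0, and 0 to 3 with a sample left out (3 without WT tumour 3), and for the interaction 0, and 0 to 1 (1 without WT tumour 3). In the other 4 comparisons it was 0 under every alternative run. The cause was not tested. Of 1198 alternatives run for 72 single-gene results, 1121 kept direction and side of the threshold, 42 lost the call, 35 gained a call and 0 turned the direction. The 72 were chosen mainly by an unadjusted p under 0.05 in these same samples, and most were never called, so these totals are no independent support. The losses were all in called genes. In WT, of 16 alternatives each, Acadm lost its call in 9, Cpt2 in 7, Pex11a in 7, Slc27a5 in 6 and Acaa1b in 0. In GKO, of 15 each, Cpt2 lost it in 8 and Cpt1a in 5.

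With the replicate number as a block, 4 genes were called between WT tumours and non-tumours and 2 between GKO tumours and non-tumours, and 0 in each of the other comparisons. Apart from GKO against WT tumours, same-numbered samples had correlations of their deviations from -0.315 to 0.249, and not all 3 pairs of any comparison were above 0.1. In every comparison the samples were taken to share only a number. In GKO tumours and non-tumours each sample correlated best with its own number, a hint from the data and not from the design.

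Each of the 37 genes had at least 29 reads in every sample, and depth was lowest in WT normal 1 (11925094 reads).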
